A study of Homo sapiens with 12 samples.

Results

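DNA replication and nucleotide synthesis genes were examined in 3 human leukemia lines as a set of 46 genes chosen by name for their function. The set holds the genes that license and fire replication origins, unwind DNA, load the sliding clamp, copy and join the strands, and make deoxynucleotides. All 46 were found by symbol among the 60671 genes of the count table, and all 46 were among the 18626 genes that had enough reads to be tested.

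Replication starts when the origin recognition complex, CDC6 and CDT1 load the MCM helicase onto DNA in G1 phase. The kinase CDC7 with DBF4, together with CDC45 and the GINS complex, then turns the loaded helicase into an active motor, and polymerase alpha-primase, the clamp PCNA with its RFC loader, and polymerases delta and epsilon copy both strands. Ribonucleotide reductase (RRM1 with RRM2), thymidylate synthase (TYMS) and thymidine kinase (TK1) supply the deoxynucleotides. Transcription of many of these genes rises at the G1/S border under E2F factors. Topoisomerase II alpha (TOP2A), the target of the anticancer drug etoposide, removes the tangles that replication leaves behind.

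RNA-seq of total RNA compared the parental line K562 with 2 lines derived from it, K/VP.5 and K562/SSedit-2, in 4 replicates each. K562 is an established erythroleukemia line with the BCR-ABL1 fusion. K/VP.5 is an etoposide-resistant K562 subline, itself a single clone, obtained by long-term selection with the drug. K562/SSedit-2 is a single clone of K562 in which Cas9 and a repair template changed the 5′ splice site of exon 19 and intron 19 of TOP2A in 2 of 3 alleles. Cells of all 3 lines were grown in the same serum-containing medium and taken in mid-log phase, and the labels name no drug in the cultures from which RNA was taken. Because each derived line is 1 clone, the effect of selection or editing and the history of that clone cannot be told apart. The labels do not say whether replicates were separate cultures, so the p-values measure the spread between these samples, which may be technical.

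Total counts per sample ranged from 28981722 to 43648830, and the lowest count of any of the 46 genes in any sample was 381. Mean levels of the set in K562 ran from 15.8 CPM (POLA2) to 678 CPM (MCM7). More than 10% of the exon bases are shared with other genes in TYMS, MCM2, GINS4, POLA2, PRIM1, GINS3 and RFC5, and PCNA, RRM2, DBF4, RPA2, RPA3, TYMS, ORC1, RFC5, POLD2 and FEN1 have named pseudogenes, so their counts are less certain. TOP2A, the edited gene, was at 488, 352.5, 380.0 and 388 CPM (counts divided by the TMM-scaled library size in units of 1e6 reads) in K562 and at 203, 177, 179 and 208 CPM in K562/SSedit-2, a log2 fold change of -1.07 (SE 0.0896, adjusted p = 1.05e-06). It was at 281, 269, 282 and 268 CPM in K/VP.5 and fell there too, a log2 fold change of -0.55 (SE 0.0888, adjusted p = 8.58e-05), so a lower TOP2A level does not mark the edited clone alone and does not check the edit itself. These changes were -0.96 and -0.46 without K562 replicate 1, a library that stood apart. The erythroid transcription factor gene GATA1 was at a mean of 387, 275 and 388 CPM in the parent, K/VP.5 and the edited clone. Of 5 lymphoid and 5 fibroblast markers, 2 and 3 had enough reads to be tested, with CD3D at means of 32.8, 8.34 and 43.1 CPM and COL1A1 at 2.59, 22.5 and 2.16 CPM in the same order of lines, and their part in the results was not tested. K562 replicate 1 stood apart: chi-square over degrees of freedom, across genes, was 61.3 to 65.05 in its 3 pairs with other K562 replicates and 5.36 to 22.29 in the 15 other pairs within a line. Its value lay outside the range of the other 3 K562 replicates for 74.2% of all tested genes, against 32.4% to 65.1% for each of the other 11 samples within its own line. For the 46 genes the shares were 73.9%, close to that of all genes, and 6.52% to 71.7%, the highest of these in K/VP.5 replicate 1. The main calls and the changes of genes described singly are therefore also given without K562 replicate 1.

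The regulatory sequences of the genes whose changes are described most closely are shown as the 250 bases before the RefSeq transcript start, on the coding strand, from GRCh38.p14. Capitals mark letters of the E2F type, searched on both strands as the 8-letter forms TTTCCCGC, TTTGGCGC, TTTCGCGC and TTTGCCGC and as the 7-letter core GGCGGGA, which can overlap the 8-letter forms and the GC box GGGCGG. RRM1 and RRM2 code for the 2 subunits of ribonucleotide reductase, GINS2 and RFC1 for parts of the helicase and of the clamp loader, and CDC6 and PRIM1 were the genes called in the edited clone. The windows are chr11:4094435-4094684 (plus strand) for RRM1, chr2:10122489-10122738 (plus) for RRM2, chr16:85688955-85689204 (minus) for GINS2, chr4:39366363-39366612 (minus) for RFC1, chr17:40287629-40287878 (plus) for CDC6 and chr12:56752324-56752573 (minus) for PRIM1.
RRM1: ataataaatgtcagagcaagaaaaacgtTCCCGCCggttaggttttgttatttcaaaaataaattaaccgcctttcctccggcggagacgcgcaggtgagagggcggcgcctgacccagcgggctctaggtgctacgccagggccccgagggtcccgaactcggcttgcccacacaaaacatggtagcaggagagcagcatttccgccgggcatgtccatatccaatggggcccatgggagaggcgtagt
RRM2: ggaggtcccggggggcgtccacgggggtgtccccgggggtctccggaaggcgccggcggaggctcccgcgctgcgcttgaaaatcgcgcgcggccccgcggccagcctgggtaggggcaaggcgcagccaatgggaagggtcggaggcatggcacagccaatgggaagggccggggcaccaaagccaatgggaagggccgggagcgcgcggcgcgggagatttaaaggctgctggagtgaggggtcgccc
GINS2: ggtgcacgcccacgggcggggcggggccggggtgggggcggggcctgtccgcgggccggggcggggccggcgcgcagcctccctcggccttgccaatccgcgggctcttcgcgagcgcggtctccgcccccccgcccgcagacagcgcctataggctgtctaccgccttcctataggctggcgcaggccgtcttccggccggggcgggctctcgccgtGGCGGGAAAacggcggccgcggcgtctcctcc
RFC1: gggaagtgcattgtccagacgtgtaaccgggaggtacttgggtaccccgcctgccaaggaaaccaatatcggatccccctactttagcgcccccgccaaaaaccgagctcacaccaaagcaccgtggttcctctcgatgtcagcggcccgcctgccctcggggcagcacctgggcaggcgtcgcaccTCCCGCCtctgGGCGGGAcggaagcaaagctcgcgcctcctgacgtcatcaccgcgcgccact
CDC6: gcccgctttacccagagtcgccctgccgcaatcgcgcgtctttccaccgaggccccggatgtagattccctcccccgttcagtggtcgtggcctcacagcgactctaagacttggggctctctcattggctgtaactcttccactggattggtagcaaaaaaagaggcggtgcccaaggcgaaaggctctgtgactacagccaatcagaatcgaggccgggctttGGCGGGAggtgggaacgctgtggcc
PRIM1: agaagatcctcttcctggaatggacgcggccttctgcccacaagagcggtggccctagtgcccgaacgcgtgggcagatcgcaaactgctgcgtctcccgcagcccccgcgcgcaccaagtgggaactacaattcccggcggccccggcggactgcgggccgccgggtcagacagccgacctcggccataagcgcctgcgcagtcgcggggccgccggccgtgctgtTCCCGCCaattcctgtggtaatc

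In these windows a match began 25 bases before the start in CDC6, 23 in PRIM1, 32 in GINS2, where the 7-letter and 8-letter forms overlapped, 63 and 52 in RFC1, and 222 in RRM1. The RRM2 window held none of these letters. RefSeq windows were listed for 40 of the 46 genes, 52 windows in all, and MCM4, MCM5, GINS4, POLD3, RPA2 and RPA3 had none. The 8-letter forms were in 26.9% of the 52 windows, against 2.79% of all 35114 promoter windows of this length and 4.01% of the 16232 windows of tested genes. The 7-letter core was in 42.3% of the windows, against 13.5% of all windows and 20.4% of those of tested genes. At least 1 of the forms was found for 28 of the 40 genes. The CCAAT box was in 55.8% of the windows against 32.6% of those of tested genes, and TTTGAA, the core of the element that marks many later cell-cycle genes, in 1.92% against 9.03%. Among windows of genes that rose in K/VP.5, described next, 8 of 21 held an 8-letter form, against 2 of 10 for genes that fell and 4 of 21 for genes not called. The 7-letter core was in 9 of 21, 7 of 10 and 6 of 21 of the same windows. These are counts of letters, and binding of E2F factors was not measured.

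The first comparison asked how the replication genes of the drug-selected line differ from those of its parent. In K/VP.5 the set did not move one way: 15 genes rose and 9 fell at an adjusted p under 0.1, and 22 were not called. The rises were spread over the MCM helicase, origin recognition, licensing control, helicase activation, polymerases, strand joining and nucleotide synthesis. Of the 9 falls, 4 were in the clamp and its loader. Genes that rose were 32.6% of the set, against 26.2% of all tested genes, and genes that fell were 19.6%, against 26.1%. In either direction 52.2% of the set was called, against 52.3% of all tested genes, and the median log2 fold change was 0.04 over the 46 genes and 0.01 over all genes tested. No gene of the set changed by 2-fold with an adjusted p under 0.1, against 15.6% of all tested genes, and the largest change in the set was smaller than 2-fold in size. Only 3 of the 46 changed by at least 1.5-fold, whereas 17.4% of the 8072 tested genes expressed at or above the lowest of the set did so. The median size of the change was close in both, 0.22 on the log2 scale in the set and 0.23 in those 8072 genes. The 4 replicates of both lines did not overlap for 19 genes, 41.3% of the set against 43.0% of all tested genes. Without K562 replicate 1, 14 genes rose and 9 fell, 30.4% and 19.6% of the set, against 25.9% and 26.5% of the genes then tested. FEN1, ORC3, POLA2 and RFC5 then lost their call, and GINS1, PRIM1 and RPA3 gained one. In bulk RNA, fewer cells in S phase and less RNA of a gene per cell cannot be told apart. The summed CPM of the 46 genes was 6903 to 7281 in K/VP.5, above the 6594 to 6776 of the parent and the 6574 to 6875 of the edited clone. That of 24 genes of G2 and M phase, TOP2A left out, was 2503 to 2666 in K/VP.5, 2408 to 3083 in the parent, where replicate 1 was the highest, and 2469 to 2833 in the edited clone, so the lines overlapped. A sum follows its most abundant genes: of the whole list of 25, 6 genes fell in K/VP.5, TOP2A and CENPE (-1.26, the lowest) among them, 3 rose and 16 were not called, with a median of -0.09.

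**Figure D1:**
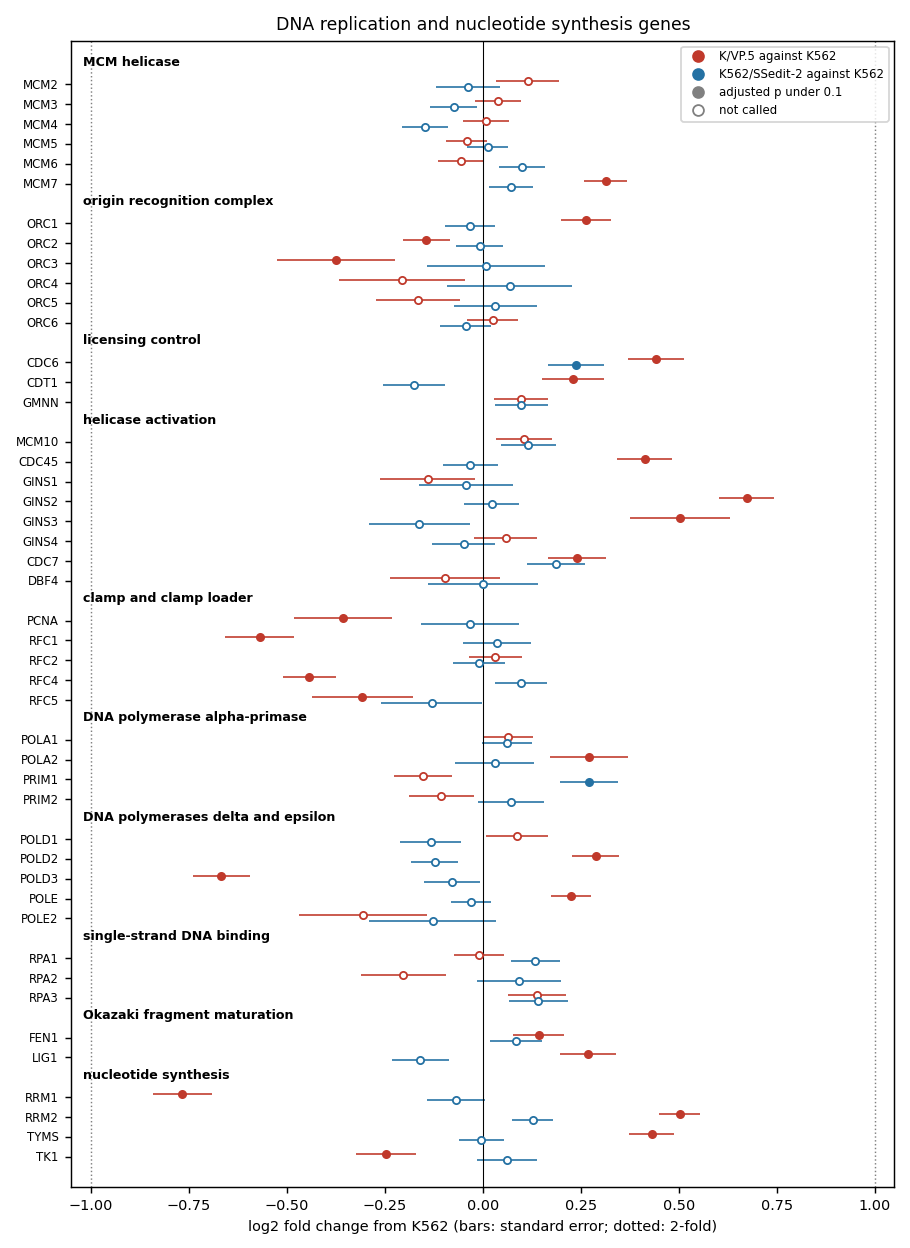
Log2 fold change from K562 of each of the 46 genes, grouped by role, in K/VP.5 (red) and in K562/SSedit-2 (blue). Points are the fitted changes with their standard errors from edgeR over 4 replicates per line, filled where the adjusted p was under 0.1, and dotted lines mark 2-fold. The K/VP.5 changes run from -0.77 in RRM1 to 0.67 in GINS2, and those of K562/SSedit-2 stay between -0.18 and 0.27.

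The nucleotide synthesis genes held the sharpest contrast. RRM1 (ENSG00000167325), the large subunit of ribonucleotide reductase that holds its active and regulatory sites, was at 249, 204, 204 and 201 CPM in K562, against 132, 128, 125 and 119.8 in K/VP.5, with 206, 193, 198.5 and 221 in the edited clone. RRM2 (ENSG00000171848), the small subunit that carries the radical and is made in S phase, was at 267, 267, 266.5 and 267 CPM in K562, against 387, 382, 379 and 365.5 in K/VP.5, with 284, 298, 280.0 and 305 in the edited clone. Every K/VP.5 replicate was below every other sample for RRM1 and above every other sample for RRM2. RRM1 fell in K/VP.5 by 41.2%, a log2 fold change of -0.77 (SE 0.0753, adjusted p = 3.58e-07). RRM2 rose by 41.7%, a log2 fold change of 0.50 (SE 0.0526, adjusted p = 7.45e-07). Without K562 replicate 1, the highest of the K562 samples for RRM1, the log2 fold changes were -0.71 and 0.48. Per length of annotated exons, the ratio of RRM2 to RRM1 transcripts was 1.35 to 1.41 in K/VP.5, against 0.496 to 0.615 in the parent and 0.636 to 0.714 in the edited clone. The exon length cancels when lines are compared, so the ratio of K/VP.5 stood above all 8 other samples, with means of 0.58 ± 0.056 in K562 and 1.39 ± 0.026 in K/VP.5 (SD, n = 4).

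TYMS, which makes thymidylate and is the target of fluorouracil, was at 121, 121, 122 and 118 CPM in K562, against 172, 153, 165 and 160.1 in K/VP.5, with 125, 123, 116 and 117 in the edited clone. It rose in K/VP.5, a log2 fold change of 0.43 (SE 0.0572, adjusted p = 1.05e-05), or 0.41 without K562 replicate 1. TK1, the salvage enzyme that phosphorylates thymidine, was at 167, 152, 139 and 131 CPM in K562, against 131, 120.4, 124 and 122 in K/VP.5, with 164.5, 160.0, 145 and 146 in the edited clone, and it fell in K/VP.5, a log2 fold change of -0.25 (SE 0.0759, adjusted p = 0.014), or -0.20 without K562 replicate 1. Its K562 replicate nearest to K/VP.5 was only just above the highest K/VP.5 replicate. The counts of TYMS carry an extra doubt, since 47.9% of its exon bases are shared with the antisense genes ENOSF1 and TYMSOS and the strand setting of the counting is not given in the sources used here.

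**Figure D2:**
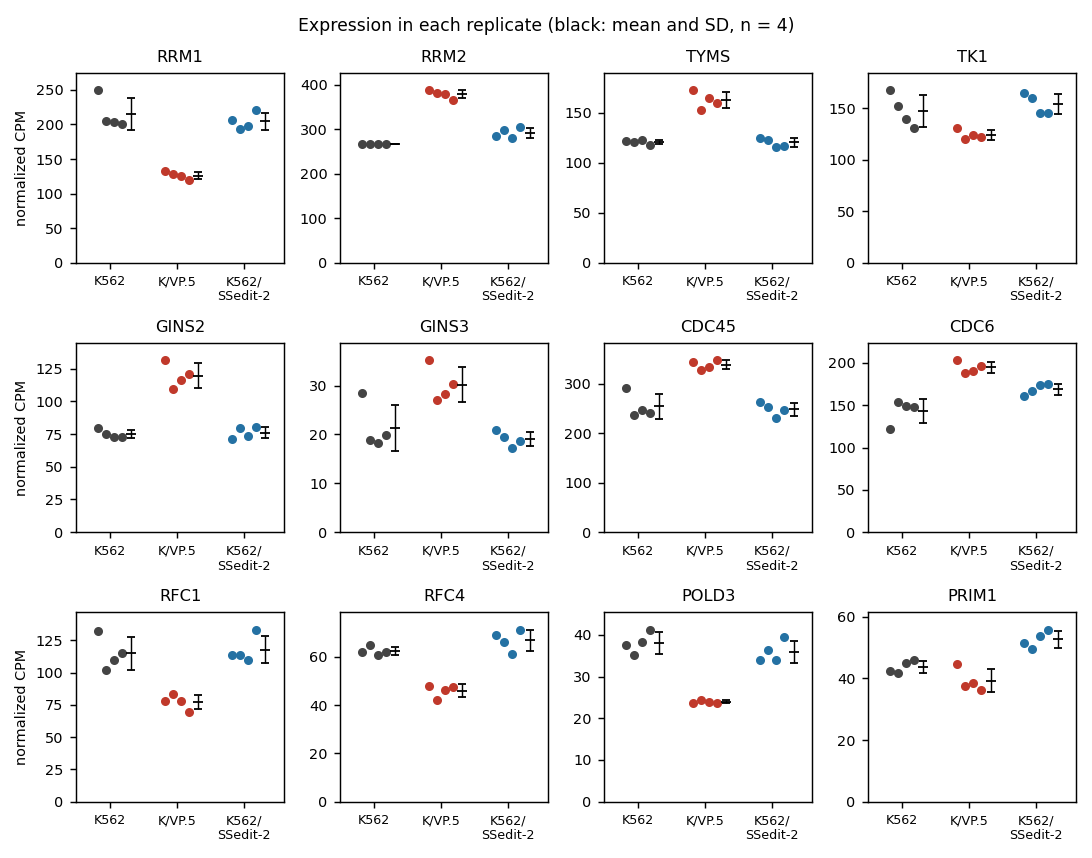
Normalized CPM of 12 genes in each replicate of K562 (grey), K/VP.5 (red) and K562/SSedit-2 (blue), with the mean and SD of each line in black (n = 4). K/VP.5 stands below both other lines for RRM1, RFC1, RFC4 and POLD3 and above them for RRM2, TYMS, GINS2, CDC45 and CDC6, and K562 replicate 1, the first grey point, lies high for RRM1, GINS3 and CDC45.

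Of the 6 MCM helicase genes, 1 rose in K/VP.5 and 5 were not called. MCM7, the subunit of highest count, was at 629, 658.5, 704.5 and 719 CPM in K562 against 858, 820.1, 833 and 857 in K/VP.5, with no overlap, and it rose, a log2 fold change of 0.31 (SE 0.0557, adjusted p = 0.000211), or 0.26 without K562 replicate 1. MCM2 to MCM6 had log2 fold changes of -0.06 to 0.11, with standard errors of 0.052 to 0.081, or -0.06 to 0.03 without K562 replicate 1. These 5 genes code for subunits of the same ring, and for each of them the replicates of K/VP.5 and K562 overlapped. MCM7 shares 8.49% of its exon bases with AP4M1 and with the microRNA gene MIR93 within it.

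In the origin recognition complex, 1 of 6 genes rose and 2 fell. ORC1, a subunit that binds ATP and comes and goes with the cell cycle, was at 98.9, 84.7, 83.2 and 85.9 CPM in K562 against 109.8, 105, 103 and 105 in K/VP.5. It rose, a log2 fold change of 0.26 (SE 0.0639, adjusted p = 0.00304), or 0.30 without K562 replicate 1. The core subunit ORC2 was at 57.5, 58.0, 57.0 and 55.1 CPM in K562 against 51.7, 49.6, 54.9 and 49.6 in K/VP.5, and it fell slightly, a log2 fold change of -0.15 (SE 0.06, adjusted p = 0.059), or -0.16 without K562 replicate 1. The ORC2 call was lost under 5 of 17 alternative settings, among them upper-quartile scaling and leaving out K/VP.5 replicate 2 or 4. ORC3 was at 58.0, 32.5, 33.4 and 35.6 CPM in K562 against 33.2, 30.1, 32.6 and 26.8 in K/VP.5, a log2 fold change of -0.38 (SE 0.151, adjusted p = 0.0532). The ORC3 call was lost without K562 replicate 1, which left -0.16 (adjusted p = 0.137), and also without K/VP.5 replicate 4. ORC4, ORC5 and ORC6 were not called, at -0.21, -0.17 and 0.03, and without K562 replicate 1 they were at 0.02, -0.08 and 0.04, so ORC4 changed sign.

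The licensing factors CDC6 and CDT1 rose and GMNN, the inhibitor of CDT1, was not called. CDC6 (ENSG00000094804), the ATPase that recruits the helicase to origins, was at 122, 154, 149 and 147 CPM in K562, against 203, 188, 190.2 and 196 in K/VP.5, with 161, 167, 173 and 175 in the edited clone. K/VP.5 was highest, the edited clone in between and K562 lowest, and no replicates of the 3 lines overlapped. CDC6 rose in K/VP.5, a log2 fold change of 0.44 (SE 0.0709, adjusted p = 7.58e-05), or 0.35 without K562 replicate 1. CDT1, the partner that brings the helicase to origins, was at 193, 199.9, 181 and 174 CPM in K562 against 203, 214, 223 and 237 in K/VP.5, and it rose, a log2 fold change of 0.23 (SE 0.0793, adjusted p = 0.026), or 0.23 without K562 replicate 1. Leaving out K562 replicate 4 ended the CDT1 call. GMNN had a log2 fold change of 0.10 (adjusted p = 0.268), or 0.09 without K562 replicate 1.

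Of the 8 genes of helicase activation, 4 rose and none fell. GINS2 (ENSG00000131153), one of the 4 subunits of the GINS ring, showed the largest rise of the set, from 79.6, 75.4, 72.7 and 72.6 CPM in K562 to 132, 109.5, 116 and 121 in K/VP.5, a log2 fold change of 0.67 (SE 0.0695, adjusted p = 6.44e-07). GINS3 was at 28.4, 18.8, 18.3 and 19.8 CPM in K562 against 35.2, 27.0, 28.3 and 30.3 in K/VP.5, a log2 fold change of 0.50 (SE 0.128, adjusted p = 0.00411). K562 replicate 1 overlapped the K/VP.5 range for GINS3, and leaving it out gave a log2 fold change of 0.65. The other subunits GINS1 and GINS4 were not called, at -0.14 and 0.06. GINS1 was at 55.0, 88.0, 92.6 and 81.6 CPM in K562 against 74.4, 66.6, 72.8 and 74.0 in K/VP.5, so the low K562 replicate 1 sat below K/VP.5 and the other 3 above it. Without that replicate GINS1 fell by 0.30 on the log2 scale (adjusted p = 0.00167). The ratio of GINS2 to GINS1 per exon length was 3.98 to 4.41 in K/VP.5, against 1.95 to 3.61 in the parent. CDC45, the helicase cofactor, rose from 292, 237, 247 and 241 CPM to 343, 328.5, 334 and 348, a log2 fold change of 0.41 (SE 0.0701, adjusted p = 0.000133). The S-phase kinase CDC7 rose by less, a log2 fold change of 0.24 (SE 0.0738, adjusted p = 0.0143), and its activator DBF4 had a log2 fold change of -0.10 (adjusted p = 0.61). MCM10, which helps the helicase to start, was not called at 0.11. The rises of GINS2, CDC45 and CDC7 were 0.68, 0.47 and 0.21 without K562 replicate 1, and MCM10 was at 0.11. DBF4 and GINS4 changed sign without that replicate, to 0.09 and -0.04.

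The clamp and its loader went the other way, with 4 of 5 genes lower. RFC1 (ENSG00000035928), the largest subunit of the loader, was at 132, 102, 109 and 115.5 CPM in K562 against 77.8, 83.6, 78.3 and 69.8 in K/VP.5, and it fell, a log2 fold change of -0.57 (SE 0.0871, adjusted p = 4.67e-05). RFC4, a small loader subunit, was at 62.1, 64.9, 60.6 and 62.1 CPM in K562 against 47.7, 42.1, 46.3 and 47.6 in K/VP.5, and it fell, a log2 fold change of -0.44 (SE 0.0671, adjusted p = 4.32e-05). The replicates of the lines did not overlap for either gene, and without K562 replicate 1 the changes of RFC1 and RFC4 were -0.52 and -0.47. PCNA, the sliding clamp that holds polymerases on DNA, was at 254, 172, 163 and 155 CPM in K562 against 163, 129, 148 and 139.5 in K/VP.5, and it fell, a log2 fold change of -0.36 (SE 0.126, adjusted p = 0.0286). K562 replicate 1 was the highest sample for PCNA and its removal brought the log2 fold change to -0.19 (adjusted p = 0.0454). RFC5 fell by 0.31 on the log2 scale (adjusted p = 0.0623), and without K562 replicate 1 it was at -0.15 (adjusted p = 0.165). The RFC5 call was lost under 5 of 17 alternatives, including without K/VP.5 replicate 2, 3 or 4. RFC2 was at 0.03 with or without that replicate. Another small loader subunit, RFC3, is not among the 46 genes but belongs to the same ring, and it rose from 45.99, 31.4, 36.7 and 41.1 CPM to 63.6, 57.7, 55.1 and 52.9, a log2 fold change of 0.57 (SE 0.111, adjusted p = 0.00051), or 0.64 without K562 replicate 1. The loader with RFC3 held 1 gene that rose and 3 that fell, of which RFC1 and RFC4 also fell without K562 replicate 1.

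The polymerases were mixed. POLD3 (ENSG00000077514), an accessory subunit of polymerase delta that also serves in break-induced replication, was at 37.4, 35.1, 38.2 and 41.3 CPM in K562, against 23.8, 24.4, 24.0 and 23.6 in K/VP.5, with 34.0, 36.3, 34.0 and 39.6 in the edited clone, and K/VP.5 was below every other sample. It fell in K/VP.5, a log2 fold change of -0.67 (SE 0.0729, adjusted p = 1.21e-06). POLD2, which links the catalytic subunit to POLD3, was at 188, 205, 194 and 182.5 CPM in K562 against 227.5, 226, 239.5 and 246 in K/VP.5, and it rose, a log2 fold change of 0.29 (SE 0.0597, adjusted p = 0.000808). The ratio of POLD2 to POLD3 per exon length was 6.38 to 7.18 in K/VP.5, against 3.04 to 4.02 in the parent. The catalytic subunit POLD1 was at 226, 266, 255 and 256 CPM in K562 against 256.5, 240.2, 269 and 299.7 in K/VP.5 and was not called at 0.09. By contrast the catalytic subunit of polymerase epsilon, POLE, rose from 237.5, 223.5, 228 and 227 CPM to 262.5, 269, 266 and 273, a log2 fold change of 0.23 (SE 0.0512, adjusted p = 0.00176). POLD3, POLD2, POLE and POLD1 were at -0.70, 0.26, 0.22 and 0.02 without K562 replicate 1. The epsilon subunit POLE2 was at -0.31 (adjusted p = 0.141), or -0.09 (adjusted p = 0.521) without K562 replicate 1. In polymerase alpha-primase, the regulatory subunit POLA2 rose, a log2 fold change of 0.27 (SE 0.1, adjusted p = 0.0363), a call that was lost without K562 replicate 1 (log2 fold change 0.16, adjusted p = 0.127) or K/VP.5 replicate 4, and POLA1, PRIM1 and PRIM2 were at 0.06, -0.15 and -0.11, with POLA1 at 0.03 and PRIM2 at -0.04 without that replicate. PRIM1 was called lower without K562 replicate 1 (-0.19, adjusted p = 0.0451), K562 replicate 2 or K/VP.5 replicate 1, and POLE2 under 4 of 17 alternatives, the replicate block among them.

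**Figure D3:**
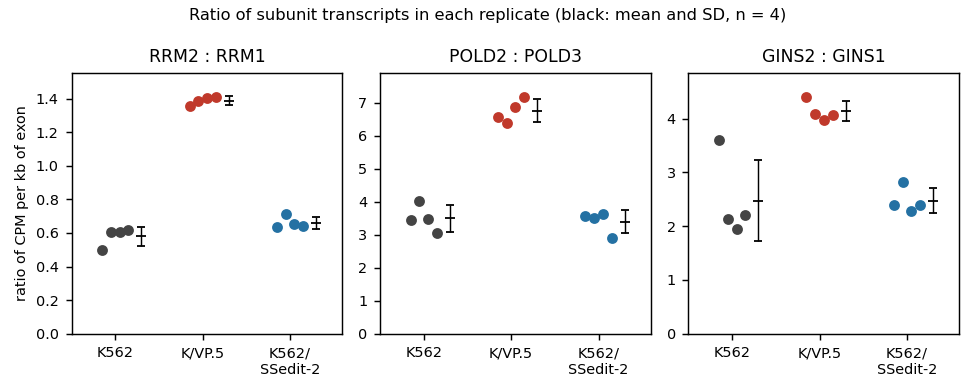
Ratio of transcripts of RRM2 to RRM1, POLD2 to POLD3 and GINS2 to GINS1 in each replicate, from CPM per kb of annotated exon, with the mean and SD of each line in black (n = 4). These pairs were picked after their changes were seen. K/VP.5 lies above every K562 and K562/SSedit-2 replicate in all 3 pairs, closest for GINS2 to GINS1, where K562 replicate 1 is at 3.61 and the lowest K/VP.5 replicate at 3.98.

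RPA1, RPA2 and RPA3 code for the protein that coats single-stranded DNA. RPA2 was at 101, 81.2, 80.9 and 89.1 CPM in K562 against 86.5, 70.4, 78.0 and 71.4 in K/VP.5, and the ranges overlapped. None of the 3 genes was called, with log2 fold changes of -0.01, -0.20 and 0.14. RPA1 and RPA2 were at -0.04 and -0.15 without K562 replicate 1, and RPA3 then rose (0.18, adjusted p = 0.0417). RPA2 was called lower under 6 of 17 alternatives, the replicate block and no filter among them, and RPA3 higher under 3. Of the genes that finish lagging-strand fragments, the ligase LIG1 rose from 83.9, 96.6, 94.1 and 89.9 CPM to 103, 104, 114 and 118.5, a log2 fold change of 0.27 (SE 0.0726, adjusted p = 0.00627), or 0.21 without K562 replicate 1. The flap nuclease FEN1 was at 199, 239.7, 229 and 230.1 CPM in K562 against 253, 229, 249 and 260.0 in K/VP.5, and it passed the threshold narrowly, a log2 fold change of 0.14 (SE 0.0658, adjusted p = 0.0914). Without K562 replicate 1, FEN1 was at 0.07 (adjusted p = 0.358), and its call was lost under 11 of 17 alternatives.

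The second comparison asked whether editing the TOP2A splice site went with a change in these genes. In the edited clone 2 of the 46 genes rose and 44 were not called. The rises were 4.35% of the set, against 4.86% of all tested genes, and the absence of falls compares with 7.79% of all tested genes. By an unadjusted p under 0.05 in edgeR, 8 genes differed, of which CDT1, MCM4 and LIG1 were lower, and neither DESeq2 nor limma voom called any gene of the set lower. No gene passed the 2-fold rule, against 2.06% of all tested genes. Replicates did not overlap for MCM4, CDC6, PRIM1 and RRM2, 8.7% of the set against 13.2% of all tested genes. The 46 log2 fold changes lay between -0.18 and 0.27, with a median of 0.00. The median size of the change was 0.07 on the log2 scale, against 0.11 for the 8072 tested genes expressed at or above the lowest of the set. The 95% confidence intervals of the 44 genes not called lay between -0.47 (POLE2) and 0.41 (ORC4).

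PRIM1 (ENSG00000198056), the catalytic subunit of primase, was at 42.3, 41.6, 45.0 and 45.8 CPM in K562 against 51.3, 49.7, 53.8 and 55.9 in the edited clone, and all 4 edited replicates were above all K562 replicates. It rose, a log2 fold change of 0.27 (SE 0.074, adjusted p = 0.0342), and by 0.26 without K562 replicate 1. It shares 19.1% of its exon bases with neighbouring genes, NACA and HSD17B6 among them. CDC6 rose as well, a log2 fold change of 0.24 (SE 0.0708, adjusted p = 0.0508), or 0.17 (adjusted p = 0.0513) without K562 replicate 1. Its call was lost under 5 of 17 alternatives, among them leaving out the edited clone's replicate 3 or 4, and that of PRIM1 under 2, no filter and leaving out K562 replicate 2. RRM2 was at 0.13 (adjusted p = 0.156) and RRM1 at -0.07 (adjusted p = 0.649). CDT1 had the lowest change, -0.18 (adjusted p = 0.202). Without K562 replicate 1 these 3 genes were at 0.13, 0.01 and -0.16, none of them called.

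Without K562 replicate 1, 5 genes of the set rose and 2 fell in the edited clone, in place of 2 and 0. These were 10.9% and 4.35% of the set, against 9.56% and 9.94% of the genes then tested, so calls became more frequent over all genes as well. The added calls were ORC3 (0.25), ORC4 (0.32) and RPA3 (0.20), which were higher, and GINS1 (-0.18) and LIG1 (-0.20), which were lower, with adjusted p from 0.0267 to 0.0994. ORC4 was at 46.4, 26.5, 25.9 and 26.4 CPM in K562 against 34.2, 33.5, 28.6 and 34.8 in the edited clone, so the first K562 replicate lay above the edited clone and the other 3 below it.

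The third comparison set the 2 resistant lines against each other. K562/SSedit-2 had 13 genes higher and 15 lower than K/VP.5, 28.3% and 32.6% of the set, against 26.2% and 27.8% of all tested genes. In either direction 60.9% of the set was called, against 54.0% of all tested genes. None passed 2-fold, against 15.8% of all tested genes, and replicates did not overlap for 27 genes, 58.7% of the set against 47.4% of all. Both comparisons of K/VP.5 share its samples, so their values are given side by side and not as separate evidence. RRM1 was higher in the edited clone, a log2 fold change of 0.70 (SE 0.0752, adjusted p = 9.98e-07), and RRM2 lower, a log2 fold change of -0.38 (SE 0.0526, adjusted p = 1.79e-05). RFC1, RFC4 and POLD3 were higher in the edited clone by 0.60, 0.54 and 0.59 on the log2 scale, and GINS2, GINS3, CDC45 and TYMS were lower, at -0.65, -0.67, -0.45 and -0.44. PRIM1 differed by 0.42 (adjusted p = 0.000174), with the edited clone at 49.7 to 55.9 CPM and K/VP.5 at 36.4 to 44.6. Without K562/SSedit-2 replicate 4, 8 genes were higher in place of 13.

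Where each gene lies was then set beside its change. For every gene of the set, the median log2 fold change between K/VP.5 and K562 was taken over the other genes within 5 Mb with a mean of at least 5 CPM, 10 to 172 genes each. For 39 of the 46 genes this median lay between -0.20 and 0.22. The exceptions included the 4 genes of the set that fell most in K/VP.5. Neighbours of RRM1 (chromosome 11, 4094707 to 4138932, GENCODE 44) had a median of -0.49 over 76 genes, those of POLD3 (chromosome 11, 74493851 to 74669117) -0.53 over 57 genes, those of RFC1 (chromosome 4, 39287456 to 39366375) -0.55 over 16 genes and those of RFC4 (chromosome 3, 186789880 to 186807058) -0.59 over 39 genes. The genes themselves were at -0.77, -0.67, -0.57 and -0.44, so gene and neighbours were lower together at all 4 places. These neighbour medians were -0.50, -0.50, -0.51 and -0.56 without K562 replicate 1. The neighbours of the other exceptions were higher: GINS2 (chromosome 16, 85676198 to 85690073) with 0.39 over 71 genes, CDT1 (chromosome 16, 88803789 to 88809258) with 0.46 over 63 genes, whose window overlaps that of GINS2, and RPA3 (chromosome 7, 7636518 to 7718607) with 0.70 over 39 genes, where RPA3 itself was at 0.14. By contrast the neighbours of RRM2, TYMS and CDC45 were at 0.16, 0.22 and 0.17 and those of MCM7, CDC6 and GINS3 at -0.02, -0.11 and 0.04, against rises of 0.50, 0.43, 0.41, 0.31, 0.44 and 0.50 of the genes themselves. Of the 24 genes called, 14 had neighbours whose median had the same sign. Across the 46 genes Pearson's r between the change of a gene and that of its neighbours was 0.59, given as a description, since neighbouring genes share DNA and all points share the same samples. Leaving out K562 replicate 1 moved no neighbour median by more than 0.101 and gave r = 0.65, and the median of GINS2's neighbours was then 0.28. In K562/SSedit-2 the medians lay between -0.16 and 0.11, or -0.14 and 0.17 without that replicate. The part of position in these values was not tested.

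**Figure D4:**
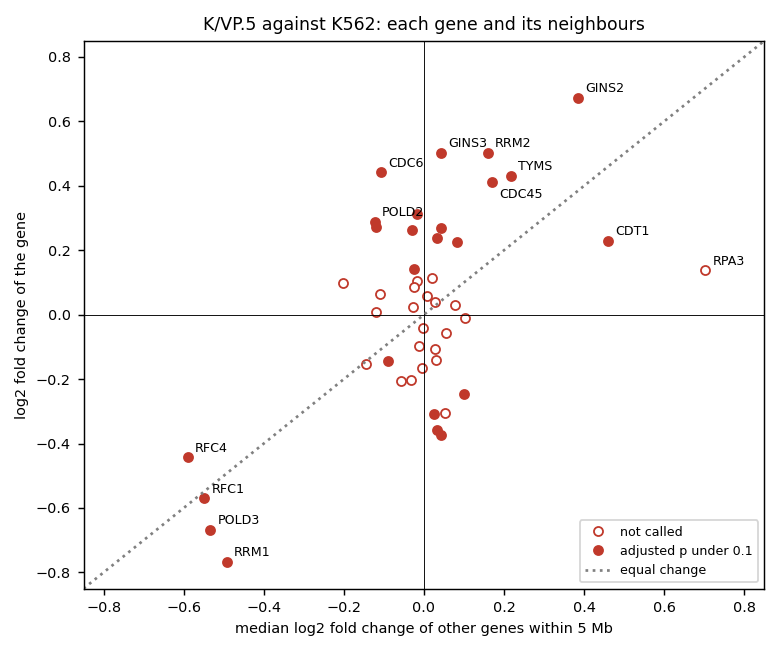
Log2 fold change of each of the 46 genes between K/VP.5 and K562 (vertical) against the median log2 fold change of the other expressed genes within 5 Mb (horizontal), with the line of equal change dotted. Filled points had an adjusted p under 0.1. RRM1, POLD3, RFC1 and RFC4 lie at the lower left, with neighbours at -0.49 to -0.59, while RRM2, GINS3 and CDC6 lie above 0.4 with neighbours between -0.11 and 0.16.

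The rest of the pathway was read from 4 further lists of 65 genes, which hold other replisome and origin factors, other deoxynucleotide genes, purine and pyrimidine synthesis, and the E2F and pocket protein regulators. In K/VP.5, 15 of the 65 rose, 23 fell and 27 were not called, and the median of their log2 fold changes was -0.05. Rises made up 23.1% of the lists and falls 35.4%, against 26.2% and 26.1% of all tested genes, and the counts were also 15 and 23 without K562 replicate 1. In the edited clone, 2 rose, 3 fell and 60 were not called, with a median of -0.02, while the medians over all tested genes were 0.01 and -0.01. The 5 called genes were 7.69% of the lists, against 12.6% of all tested genes, and without K562 replicate 1 there were 14, 21.5% against 19.5%. Among the 24 other replisome and origin factors 5 rose and 7 fell in K/VP.5. POLD4, the smallest subunit of polymerase delta, fell the most, from 3.79, 4.70, 3.23 and 3.43 CPM in K562 to 1.02, 1.12, 1.13 and 1.12 in K/VP.5, a log2 fold change of -1.79 (SE 0.166, adjusted p = 1.79e-07). MCMBP, which binds MCM subunits and protects the new ones, was at 141, 122.5, 121 and 125.5 CPM in K562 against 77.3, 68.4, 72.9 and 67.8 in K/VP.5, a log2 fold change of -0.83 (SE 0.0717, adjusted p = 7.55e-08). All K/VP.5 replicates of both genes were below all replicates of the other lines, and without K562 replicate 1 the changes were -1.81 and -0.80.

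Of the 13 other deoxynucleotide genes 3 rose and 6 fell in K/VP.5, among them TK2, the mitochondrial thymidine kinase, a log2 fold change of -0.62 (SE 0.115, adjusted p = 0.00032). Of the 15 genes of purine and pyrimidine synthesis 6 rose and 5 fell, and GMPS, which makes guanosine monophosphate, fell from 318, 227, 231 and 244 CPM to 168, 154, 159.7 and 150.2, a log2 fold change of -0.69 (SE 0.0957, adjusted p = 1.71e-05). Of the 13 E2F and pocket protein regulators 1 rose and 5 fell. RBL2, the pocket protein p130 that holds E2F targets down in resting cells, was at 50.2, 39.6, 37.0 and 40.4 CPM in K562 against 23.8, 25.9, 26.8 and 23.9 in K/VP.5, and it fell, a log2 fold change of -0.74 (SE 0.0887, adjusted p = 3.65e-06). TK2, GMPS and RBL2 were at -0.57, -0.59 and -0.66 without K562 replicate 1. In the edited clone none of these 13 regulators was called by edgeR.

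In K562/SSedit-2, 5 genes of the 4 lists were called. RNASEH2C, a subunit of the RNase that removes ribonucleotides from DNA, was at 54.7, 77.5, 80.2 and 76.1 CPM in K562 against 96.9, 97.4, 105 and 85.8 in the edited clone and rose, a log2 fold change of 0.42 (SE 0.106, adjusted p = 0.0234), or 0.31 without K562 replicate 1. WDHD1, which couples polymerase alpha to the helicase, was at 66.9, 70.6, 73.4 and 81.0 CPM in K562 against 84.9, 85.9, 82.4 and 98.6 in the edited clone and rose, a log2 fold change of 0.27 (SE 0.0732, adjusted p = 0.0329), or 0.23 without K562 replicate 1. IMPDH1, LRWD1 and DBF4B fell by 0.30, 0.26 and 0.23 on the log2 scale, and by 0.265 to 0.293 without K562 replicate 1. IMPDH1 makes guanine nucleotide precursors, LRWD1 binds the origin recognition complex and DBF4B activates CDC7. Between the 2 resistant lines 23 genes of the lists were higher in K562/SSedit-2 and 17 lower. PFAS, an enzyme of purine synthesis, was at 271, 269, 309 and 280.4 CPM in the edited clone against 397, 391, 423 and 463 in K/VP.5, a log2 fold change of -0.57 (SE 0.0969, adjusted p = 0.000133).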

How the data were processed

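RNA-seq counts of 12 samples, 4 from each line, were read from 1 table. The authors mapped paired-end reads to GRCh38 with HISAT2 and counted them per Ensembl gene with featureCounts, and the deposited values are whole-number counts without normalization. The annotation release and the strand setting are not given in the sources used here, so genes that overlap others or have pseudogenes have uncertain counts. Symbols, positions and exon lengths came from GENCODE 44, and exon length was the union of all annotated exons.

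Genes were kept by filterByExpr with a minimum count of 10. All 12 samples were fitted together by line with edgeR 4.0.16 (R 4.3.3), using TMM factors and its quasi-likelihood F test, with p-values adjusted by Benjamini-Hochberg over the 18626 tested genes. Calls used an adjusted p under 0.1, the study's level, with or without 2-fold. Standard errors were the log2 fold change over the square root of F. CPM used the TMM-scaled counts of tested genes, so that 3 counts were 0.0691 to 0.102 CPM. Alternatives were other scalings, filters and thresholds, DESeq2 1.42.0, limma 3.58.1 voom, a fit of the 2 lines compared, the replicate number as a block, and leaving out each replicate.

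The sample titles give replicate numbers and state no pairing between lines. In K562/SSedit-2 and K562, deviations from the line means correlated across genes at r = 0.135 to 0.292 in the 4 same-numbered pairs. In the 12 other pairs r was -0.313 to 0.128. Whether same-numbered samples were processed together was not tested, and the main fit used no pairing. The 46 genes and all lists were chosen with earlier results of these data known. The genes named with values were the 8 members with the largest called change in each comparison, the member of highest level per length of each role, and 5 genes of the further lists per comparison. RFC3, the 7-letter motif, the transcript ratios and the other genes with values in every sample were chosen after their values were seen.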

Additional observations from a re-analysis of the deposited data

Results flagged for a closer look

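Among the named genes, 93 groups of 4 replicates were examined for a replicate far from the other 3 relative to the range of its group, and 8 were found, where chance gives about 1 in 20 groups. In 5 of them the sample was K562 replicate 1. It was the highest K562 replicate for RRM1 (249.3 CPM, the others 201.0 to 204.4), GINS3 (28.43 CPM, the others 18.33 to 19.79) and PCNA (254.0 CPM, the others 155.0 to 171.6). It was the lowest for RNASEH2C (54.68 CPM, the others 76.11 to 80.22) and PFAS (254.6 CPM, the others 342.2 to 358.7). K562/SSedit-2 replicate 4 was the highest of its line for RFC1 (133.4 CPM, the others 110.0 to 113.9) and the lowest for POLD1 (204.7 CPM, the others 234.1 to 239.6). K/VP.5 replicate 1 was the lowest of its line for POLD4 (1.024 CPM, the others 1.117 to 1.129).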

How the results depend on the processing

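Under all alternatives, 239 values for the 3 comparisons as a whole counted as close to the reported value, 16 as moved and 0 as reversed. Members lower in K/VP.5 against K562, 9 as reported and 6 to 13 with 1 replicate left out, counted as close. Of the values for single genes, 1470 kept their direction and side of the threshold, and 41 called in neither fit changed sign. Another 51 lost a call and 19 gained one. With a filter of 1 CPM in 4 samples, genes past 2-fold numbered 1923 in K/VP.5 against K562 (2914 as reported) and 246 in K562/SSedit-2 against K562 (384 as reported), where fewer genes are tested. In K562/SSedit-2 against K562, 2 members rose as reported, 0 without a filter, 4 with the filter of 1 CPM, 1 in the fit of the 2 lines and 1 at an adjusted p under 0.05. Over all genes, 2356 were called as reported, 1469 in the fit of the 2 lines and 1471 at an adjusted p under 0.05. Leaving out 1 replicate gave 1 to 5 members higher, 0 to 2 lower and 1352 to 3710 genes called in that comparison, the lowest without K562 replicate 2 and the highest without K562 replicate 1, with 1443 without K562/SSedit-2 replicate 4. In K562/SSedit-2 against K/VP.5 it gave 8 to 15 members higher, and in K/VP.5 against K562 6 to 13 lower. The cause of these shifts was not tested.

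With the replicate number as a block, 26 members were called in K/VP.5 against K562 (24 without). In K562/SSedit-2 against K562 the number was 2 (2 without), and the block changed no call of the set. There were 31 in K562/SSedit-2 against K/VP.5 (28 without). Same-numbered samples of K/VP.5 and K562 correlated at r = -0.003 to 0.269, against -0.234 to 0.13 in the other pairs. For K562/SSedit-2 and K/VP.5 the values were -0.095 to 0.161, against -0.166 to 0.14. These ranges overlap, and whether same-numbered samples share a batch was not tested. Upper-quartile scaling brought the median of all genes in K/VP.5 to 0.075, a shift of 0.068. With 4 replicates per line the standard errors of members were 0.051 to 0.16 on the log2 scale, and depth did not limit any member, as the lowest count was 381.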
